A study of Ovis aries with 2 samples.

Results

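The genes TAC3, NMB, RLN3 and BDNF encode secreted peptides that the anterior pituitary makes in small amounts beside its main hormones. They are 4 of the 23141 genes listed in the count matrices of a single-cell study of dissociated anterior pituitaries from Hu sheep, a Chinese breed, and each symbol matched 1 row. The 4 genes were selected on measured values of these libraries, namely their levels by cell class and their difference between the ages in an earlier look at the data, so the levels and ratios below are a description of them and carry no test. The study compared sheep aged 3 months with sheep aged 6 months, a span chosen around puberty, with 1 droplet library per age. The labels give the breed, the age and the lobe for both libraries, and no treatment or genetic change in either. The labels do not state how many animals stand behind a library, their sex or whether cells were pooled. Age and library therefore cannot be told apart, and every difference below is one between these libraries, without a replicate check.

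TAC3 encodes neurokinin B, a tachykinin that hypothalamic neurons of sheep release together with kisspeptin and dynorphin to set the pulses of gonadotropin-releasing hormone. Its receptor is encoded by TACR3. NMB encodes neuromedin B, a bombesin-like peptide that binds the receptor NMBR and, less tightly, GRPR, the receptor of its sister peptide GRP. In the rat pituitary neuromedin B is known from thyrotrophs, where it restrains the release of thyrotropin. RLN3 encodes relaxin 3, a peptide of the insulin and relaxin family that in rodent brain comes mainly from neurons of the nucleus incertus and signals through RXFP3. BDNF encodes brain-derived neurotrophic factor, which acts through the kinase receptor NTRK2, through NGFR, and is sorted and trafficked by sortilin, the product of SORT1. All 4 peptides are made as precursors that prohormone convertases cut, so genes of the secretory granule were followed beside them.

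The 3-month library held 142479651 UMIs in 18961 barcodes and the 6-month library 175239612 UMIs in 15031 barcodes. A UMI is a molecular tag that marks 1 captured transcript. After filtering, 15446 and 12683 cells were left, with medians of 5022 and 9156 UMIs per cell. The libraries shared 81 barcode sequences, 0.427% and 0.539% of their barcodes. The cells formed 32 clusters, of which 9 stayed without a name because they did not meet every part of the naming rule. Several of these had at least 3 markers of their nearest class. Unnamed clusters are given below with the class whose markers they came nearest to. PRL, the prolactin transcript, made up 2.37% of the UMIs of endothelial-like cells at 3 months and 5.62% at 6 months. These cells do not make prolactin, so that share gives the scale of free RNA, and each share of cells with a UMI of a peptide gene is set below beside the share in endothelial-like cells.

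The share of a gene's UMIs that each cell class held differed between the libraries. TAC3 lay mainly in the unnamed cluster 3 at 3 months (51.2% of its UMIs, against 32.6% in gonadotroph-like cells) and in gonadotroph-like cells at 6 months (90.6%). NMB lay mainly in somatotroph-like cells at 3 months (83.3%), and at 6 months these held 34.9% and the far more numerous lactotroph-like cells 36.0%, although the somatotroph-like level stayed the highest. RLN3 was divided between lactotroph-like (41.9%) and gonadotroph-like cells (40.5%) at 3 months and lay mainly in lactotroph-like cells at 6 months (81.4%). BDNF was held by lactotroph-like, gonadotroph-like and stem or folliculostellate-like cells, and by unnamed clusters nearest to the last of these. Over all kept cells TAC3 had 43 UMIs at 3 months and 191 at 6 months, NMB 1631 and 450, RLN3 74 and 607, and BDNF 230 and 1390. Cells with at least 1 UMI were 39 and 46 for TAC3, 579 and 325 for NMB, 66 and 258 for RLN3, and 203 and 985 for BDNF. As CPM, the counts scaled to a fixed total of UMIs, over all cells, the log2 ratio of 6 over 3 months was 1.82 for TAC3 (95% counting interval 1.34 to 2.33) and −2.19 for NMB (−2.34 to −2.04). It was 2.70 for RLN3 (2.35 to 3.07) and 2.26 for BDNF (2.06 to 2.47). NMB was thus the member with the lower value at 6 months, and the other members were higher. These all-cell ratios also carry the changed makeup of the libraries, since lactotroph-like cells were 15.1% of the kept cells at 3 months and 42.9% at 6 months, somatotroph-like cells 8.52% and 4.32%, and gonadotroph-like cells 7.58% and 2.11%.

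**Figure D1:**
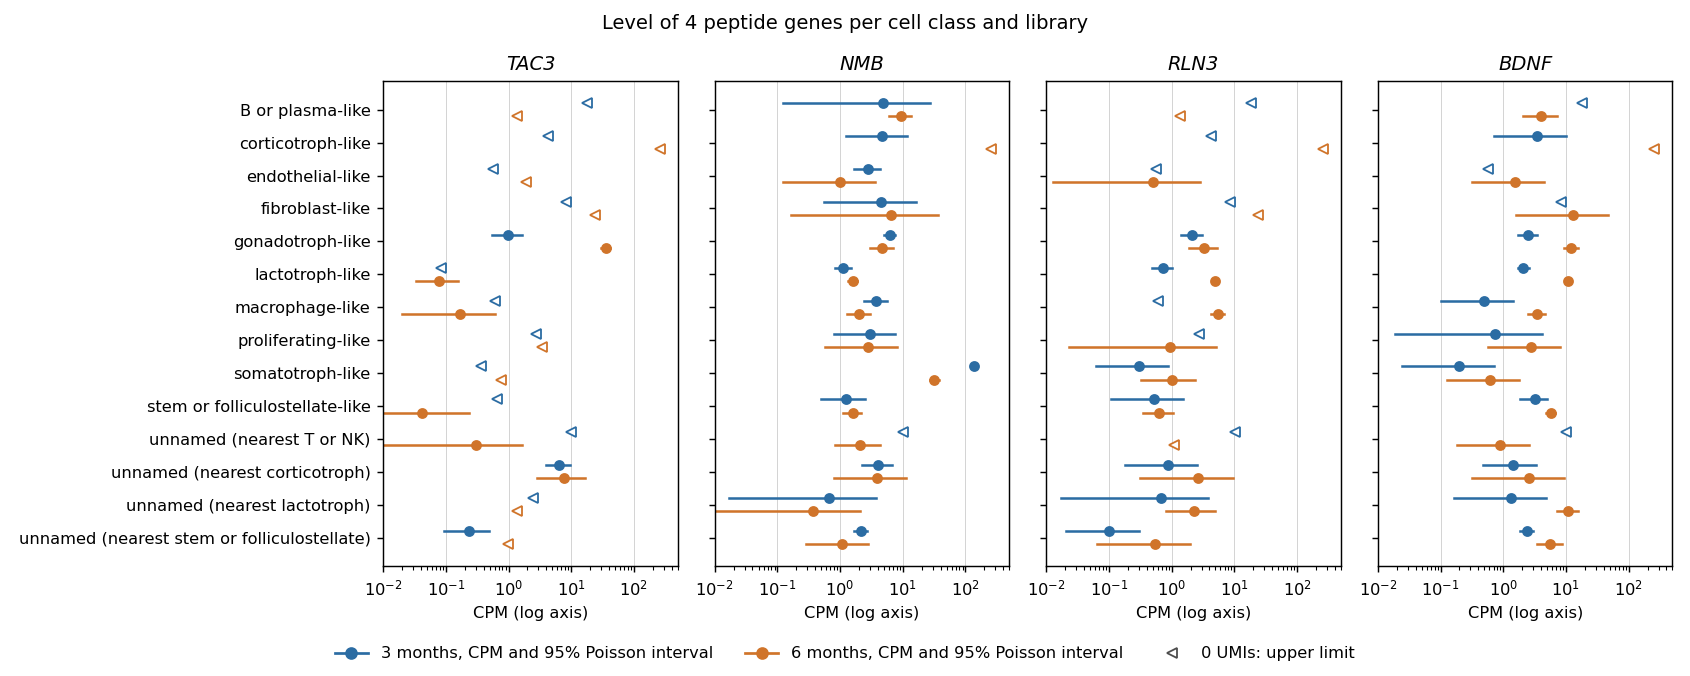
Level of each gene per cell class, as CPM on a log axis, in the 3-month (blue) and 6-month (orange) library, for classes with at least 50 cells over both libraries. Points are CPM with exact 95% Poisson intervals, which cover counting error only, and open triangles give the upper limit where the count was 0. TAC3 stands out in gonadotroph-like cells at 6 months (35.5 CPM), NMB in somatotroph-like cells at both ages (136 and 31.9 CPM), and BDNF lies at 10.6 and 12.1 CPM in lactotroph-like and gonadotroph-like cells at 6 months.

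TAC3 was near the limit of detection in gonadotroph-like cells at 3 months and clearly present in them at 6 months. These cells were defined by the gonadotropin subunit genes LHB, FSHB and CGA, the receptor gene GNRHR, and TGFBR3L and FOXL2. At 3 months 14 UMIs lay in 12 of 1171 cells, a level of 0.980 CPM (95% Poisson interval 0.536 to 1.64). At 6 months 173 UMIs lay in 30 of 267 cells, a level of 35.5 CPM (30.4 to 41.2). The intervals, which leave out the spread between cells, did not overlap, and the log2 ratio was 5.18 (4.39 to 6.08). In the gonadotroph-like class 3.60% of the 9637 genes with at least 100 summed counts were at least 2-fold higher at 6 months and 5.43% at least 2-fold lower. Only 7 of those genes had a higher ratio than TAC3, which had been chosen with this contrast known.

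The share of gonadotroph-like cells with a TAC3 UMI was 1.02% (95% Clopper-Pearson interval 0.531 to 1.78) at 3 months and 11.2% (7.71 to 15.7) at 6 months. The median depth of these cells was 11052 and 18566 UMIs. After each cell was thinned to 2000 UMIs, which left 1006 and 251 cells deep enough, the share was 0 of 1006, with an upper bound of 0.366%, and 9 of 251, or 3.59% (1.65 to 6.70). Endothelial-like cells held no TAC3 UMI in 1876 cells (median depth 2750.5 UMIs) and in 436 cells (3310.0 UMIs). The upper Clopper-Pearson bounds on the share of such cells with a UMI were 0.196% and 0.843%. No TAC3 UMI was found in somatotroph-like, corticotroph-like, fibroblast-like, proliferating-like or B or plasma-like cells of either library. In lactotroph-like cells it was 0 UMIs at 3 months and 8 UMIs at 6 months in 6 of 5444 cells, or 0.0787 CPM.

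At 6 months TAC3 was carried by few cells with many copies. Of the 30 positive gonadotroph-like cells 6 had 1 UMI, 6 had 2, 6 had 3 to 4, 9 had 5 to 9 and 3 had 10 or more, with 40 UMIs in the highest. The 12 cells with at least 5 UMIs held 136 of the 191 TAC3 UMIs of the library (71.2%), and all 12 were gonadotroph-like. At 3 months no cell had more than 2 UMIs. The gonadotroph-like class was itself made of different clusters at the ages. Cluster 14, led by FSHB and GNRHR, was 74.3% of the class at 3 months and 33.7% at 6 months, and cluster 30, led by IGFBP1 and NPPC, was 0.171% and 53.9%. Cluster 30 held 25 of the positive 6-month cells and 153 UMIs, at 46.0 CPM (39.0 to 53.9) on UMI totals. Cluster 12, a shallow gonadotroph-like cluster with a median of 2356 UMIs at 6 months, held 15 UMIs in 3 of 33 cells, or 85.5 CPM (47.9 to 141). Within cluster 14 the level was 1.11 CPM at 3 months and 3.02 CPM at 6 months, with a log2 ratio of 1.45 (−0.38 to 3.01) whose interval includes 0. Without cluster 30 the class ratio was 3.56.

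The TAC3-positive cells of the 6-month library were poor in FSHB, which encodes the beta subunit of follicle-stimulating hormone. FSHB made up 0.0102% of the UMIs of the 30 positive gonadotroph-like cells and 0.133% of those of the 237 other cells. LHB, the luteinizing hormone beta subunit, made up 2.59% and 3.29%. CGA, their shared alpha subunit, made up 22.1% and 24.8% within cluster 30. Within cluster 30 FSHB was low in cells with and without TAC3 alike, at 0.00687% and 0.00813%. At 3 months the 12 positive cells all lay in cluster 14, and FSHB made up 0.287% of their UMIs against 0.169% in the other cells of that cluster. The low FSHB of positive cells was thus seen at 6 months, where most of them belonged to cluster 30, and not at 3 months.

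A smaller TAC3 signal lay outside the gonadotroph-like class and was the larger part of the 3-month total. Cluster 3, an unnamed cluster nearest to corticotrophs and led by CNTN3, SCGN and the transcription factor gene NEUROD1, held 22 of the 43 UMIs in 21 of 462 cells, or 6.34 CPM (3.97 to 9.60). At 6 months it held 6 UMIs in 6 of 93 cells, or 7.77 CPM (2.85 to 16.9). The log2 ratio of 0.29 had an interval from −1.30 to 1.64, so no difference was detectable there. Gonadotroph-like cells held 32.6% of the TAC3 UMIs of the 3-month library and 90.6% of those of the 6-month library.

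NMB had its highest level in somatotroph-like cells, defined by GH, GHRHR, DLK1, POU1F1, NEUROD4 and PAPPA2, and was lower there at 6 months. At 3 months 1358 UMIs lay in 382 of 1316 cells, a level of 136 CPM (129 to 143). At 6 months 157 UMIs lay in 83 of 548 cells, a level of 31.9 CPM (27.1 to 37.3). The log2 ratio was −2.09 (−2.34 to −1.85), a 4.26-fold lower level at 6 months. The interval, which leaves out the spread between cells, did not reach 0. In somatotroph-like cells 1.81% of 8899 measured genes were at least 2-fold lower and 0.618% at least 2-fold higher at 6 months, and 31 genes had a lower ratio than NMB. The class held 83.3% of all NMB UMIs at 3 months and 34.9% at 6 months.

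The share of somatotroph-like cells with an NMB UMI was 29.0% (26.6 to 31.6) at 3 months and 15.1% (12.2 to 18.4) at 6 months, at median depths of 7112 and 6187 UMIs. Thinned to 2000 UMIs per cell, it was 15.9% of 1179 cells and 6.77% of 502 cells. In endothelial-like cells the share was 0.586% and 0.459% as counted, and 0.654% and 0% after thinning, so the somatotroph-like shares lay far above that background. Cells with many copies differed more than cells with any. At 3 months 92 somatotroph-like cells had at least 5 NMB UMIs and the highest had 35, whereas at 6 months 5 cells did and the highest had 14. Among the positive cells the mean was 3.55 UMIs at 3 months and 1.89 at 6 months.

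Within the somatotroph-like class NMB lay mostly in cells without thyrotropin transcripts at 3 months. Cells with 0 UMIs of TSHB, the thyrotropin beta subunit gene, had 174 CPM of NMB (164 to 184) over 999 cells. Cells with 1 to 4 TSHB UMIs had 54.2 CPM (44.7 to 65.2), and the 123 cells with 5 or more had 8.08 CPM (4.42 to 13.6). Their GH shares were 31.1%, 35.8% and 37.7%, so all of these groups were rich in growth hormone transcripts. The cells with more TSHB were also deeper, with medians of 6388, 9836 and 13938 UMIs beside the lower NMB. At 6 months the same groups had 39.6 CPM (33.1 to 47.0), 17.6 CPM (8.45 to 32.4) and 25.3 CPM (14.5 to 41.1), and the last of these intervals overlapped with the first. The share of cells with an NMB UMI also fell over these groups at 3 months, at 32.4%, 24.7% and 8.13%. At 6 months it was 15.4%, 13.7% and 14.5%. As a share of pooled UMIs, TSHB was nonetheless higher in NMB-positive cells. It made up 0.214% of the UMIs of NMB-positive cells and 0.0898% of those of NMB-negative cells at 3 months. At 6 months these shares were 0.348% and 0.148%. The pooled shares of NMB-positive cells rest on few cells, since only 10 and 8 of them had 5 or more TSHB UMIs. NMB was thus not absent from cells with TSHB.

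No cluster was named thyrotroph-like at the resolution used. Cluster 23, a small somatotroph-like cluster of 80 cells at 3 months and 4 cells at 6 months, was led by TSHB and had 103 CPM of NMB (70.5 to 145) at 3 months, with 32 UMIs in 11 cells. When the cells were divided more finely, at a resolution of 2.0, a thyrotroph-like class of 102 and 67 cells appeared. It had 61.5 CPM of NMB (43.3 to 84.8) at 3 months and 7.39 CPM (3.82 to 12.9) at 6 months. The somatotroph-like class of that setting had 137 and 32.9 CPM. Whether the thyrotroph-like class holds like cells at both ages was not tested, so its difference between the ages is not read as one of thyrotrophs.

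NMB had lower values in the other classes than in the somatotroph-like one, though the intervals of fibroblast-like cells, with 2 and 1 UMIs, were wide. B or plasma-like cells had 9.24 CPM (5.98 to 13.6) in 9.79% of 143 cells at 6 months, and at 3 months 1 UMI in 19 cells. Gonadotroph-like cells had 6.16 CPM (4.94 to 7.59) and 4.72 CPM (2.99 to 7.08), with a log2 ratio of −0.38 (−1.11 to 0.29). Within cluster 14 it had 81 and 2 UMIs, with a log2 ratio of −2.40 (−5.47 to −0.50), and cluster 30 had 6.01 CPM at 6 months. Lactotroph-like cells had 1.11 CPM and 1.59 CPM, with a log2 ratio of 0.53 (0.05 to 1.02), at 4.30% of 11966 genes at least 2-fold lower and 2.22% at least 2-fold higher in that class. These lactotroph-like levels were close to those of endothelial-like cells, at 2.77 CPM (1.64 to 4.37) and 1.01 CPM (0.123 to 3.65). Of the 18 endothelial-like NMB UMIs at 3 months, 6 came from 1 cell. Among classes with at least 10 NMB UMIs at 3 months, gonadotroph-like cells followed somatotroph-like cells, and the intervals of gonadotroph-like, macrophage-like (3.77 CPM, 2.39 to 5.66) and endothelial-like cells overlapped or nearly touched.

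RLN3 had low levels in lactotroph-like cells. A small share of these cells held a copy, and at 6 months a few cells held many. These cells were defined by PRL, the dopamine receptor gene DRD2, POU1F1 and TRHR. At 3 months 31 UMIs lay in 30 of 2337 cells, a level of 0.714 CPM (0.485 to 1.01). At 6 months 494 UMIs lay in 213 of 5444 cells, a level of 4.86 CPM (4.44 to 5.31). The log2 ratio was 2.77 (2.24 to 3.34), and 16 of the 11966 genes measured in that class had a higher ratio. The class held 81.4% of the RLN3 UMIs of the 6-month library.

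The share of lactotroph-like cells with an RLN3 UMI was 1.28% (0.868 to 1.83) at 3 months and 3.91% (3.41 to 4.46) at 6 months, at similar median depths of 18273 and 16842 UMIs. In endothelial-like cells it was 0 of 1876 cells and 1 of 436 cells, or 0.229%. After thinning to 2000 UMIs 1 of 2141 cells (0.0467%, 0.00118 to 0.260) and 28 of 5268 cells (0.532%, 0.353 to 0.767) kept a UMI. The intervals of the ages did not overlap, but the 3-month share rests on 1 UMI. Endothelial-like cells, which were far shallower as counted, kept no RLN3 UMI after thinning in 1377 and 357 cells. Their upper bounds were 0.268% and 1.03%. Both thinned lactotroph-like shares lay below these bounds, so at equal depth they were not separated from the endothelial-like ones. At 3 months no lactotroph-like cell had more than 2 RLN3 UMIs. At 6 months 20 lactotroph-like cells had 5 or more, with 223 UMIs among them and 44 in the highest.

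The lactotroph-like class was made of different clusters at the ages. Cluster 9, led by GAL and AGTR1, was 65.7% of the class at 3 months and 0.753% at 6 months. Cluster 18, led by DEFB123 and CLEC2L, was 7.15% and 66.4%. In cluster 9 RLN3 had 30 UMIs over 1536 cells at 3 months, or 0.810 CPM, and 14 UMIs over 41 cells at 6 months, or 11.3 CPM, with a log2 ratio of 3.81 (2.78 to 4.77). At 6 months cluster 26, which is led by PRL, had 11.1 CPM (9.53 to 12.7) and cluster 18 had 3.99 CPM (3.53 to 4.48). These intervals did not overlap, but they leave out the spread between cells. In cluster 26 a single cell held 44 of the 189 RLN3 UMIs. Clusters 18 and 26 held no RLN3 UMI at 3 months in 167 and 37 cells. Cluster 1, with a median of 7401 UMIs, was large in both libraries, with 596 and 1070 cells, though the largest in neither. It had 1 and 11 RLN3 UMIs, and its log2 ratio of 2.44 had an interval from −0.34 to 7.87 that includes 0. Without cluster 9 the class ratio was 5.16.

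RLN3-positive lactotroph-like cells were deeper and richer in PRL than the others. At 6 months their median was 26306 UMIs against 16570.0 in cells without RLN3, and PRL made up 59.9% against 50.9% of their UMIs. At 3 months the medians were 28609.5 and 18199 UMIs and the PRL shares 63.4% and 53.9%. Within cluster 26 at 6 months PRL made up 66.3% and 61.9%, and within cluster 18 it was 56.3% and 50.5%. The part of depth in this difference was not tested.

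Gonadotroph-like cells also held RLN3, at a level that overlapped with that of lactotroph-like cells at 6 months and was higher at 3 months. They had 30 UMIs in 23 cells and 2.10 CPM (1.42 to 3.00) at 3 months, and 16 UMIs in 15 cells and 3.28 CPM (1.88 to 5.33) at 6 months. The log2 ratio of 0.64 had an interval from −0.33 to 1.57, so no difference between the libraries was detectable. All 30 of the 3-month UMIs lay in cluster 14. In macrophage-like cells RLN3 was 0 UMIs in 1375 cells at 3 months and 65 UMIs in 8 of 1725 cells at 6 months, or 5.41 CPM (4.18 to 6.90). Of these, 55 UMIs lay in 2 cells of cluster 16 with 42 and 13 UMIs. Those cells also had 27.5% and 47.8% of their UMIs from PRL, totals of 41105 and 82581 UMIs, and 50 and 69 UMIs of macrophage markers, so they held transcripts of both classes. Without the cells of 5 or more RLN3 UMIs the macrophage-like level was 0.832 CPM (0.399 to 1.53). Of the 15 stem or folliculostellate-like RLN3 UMIs at 6 months, 10 came from 1 cell with 66559 UMIs and 37.5% PRL.

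The gene next to RLN3 in the reference gene table of the sheep genome is IL27RA, which encodes an interleukin receptor subunit. Whether the counting used strand was not known. IL27RA was well detected in lactotroph-like cells, at 29.5 CPM and 22.2 CPM, and its log2 ratio of −0.41 (−0.51 to −0.31) had the opposite sign to that of RLN3.

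BDNF had the most UMIs of any member at 6 months and was spread over several classes, with 1 or 2 copies in most positive cells. By summed CPM its leading class was the gonadotroph-like one, at 2.45 CPM (1.71 to 3.41) from 35 UMIs in 33 of 1171 cells at 3 months and 12.1 CPM (9.21 to 15.6) from 59 UMIs in 29 of 267 cells at 6 months. The log2 ratio was 2.30 (1.68 to 2.95). By number of UMIs it was the lactotroph-like class, at 2.10 CPM (1.69 to 2.57) from 91 UMIs in 73 of 2337 cells and 10.6 CPM (9.96 to 11.2) from 1076 UMIs in 765 of 5444 cells. The log2 ratio there was 2.34 (2.03 to 2.66), with 24 of 11966 genes higher. At each age the gonadotroph-like and lactotroph-like levels had overlapping intervals, so neither class stood above the other. Lactotroph-like cells held 39.6% of the BDNF UMIs of the 3-month library and 77.4% of those of the 6-month library.

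The share of lactotroph-like cells with a BDNF UMI was 3.12% (2.46 to 3.91) at 3 months and 14.1% (lower bound 13.1%) at 6 months. That of gonadotroph-like cells was 2.82% (1.95 to 3.94) and 10.9% (7.40 to 15.2). Endothelial-like cells gave 0 of 1876 cells and 3 of 436 cells, or 0.688%. Thinned to 2000 UMIs per cell, 0.140% of lactotroph-like cells kept a UMI at 3 months and 1.86% at 6 months, and in gonadotroph-like cells the shares were 0.696% and 1.99%. Thinned endothelial-like cells kept none in 1377 and 357 cells, with upper bounds of 0.268% and 1.03%. The lactotroph-like interval overlapped with that range at 3 months (0.0289 to 0.409) and lay above it at 6 months (1.51 to 2.26). The gonadotroph-like interval lay just above it at 3 months (0.280 to 1.43) and overlapped at 6 months (0.650 to 4.59). In contrast to TAC3 and RLN3, BDNF had few cells with many copies. Of the 765 positive lactotroph-like cells at 6 months 554 had 1 UMI, 146 had 2, 58 had 3 to 4 and 7 had 5 or more, with 7 UMIs in the highest, and the 5 highest cells held 2.70% of the UMIs of the class.

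**Figure D2:**
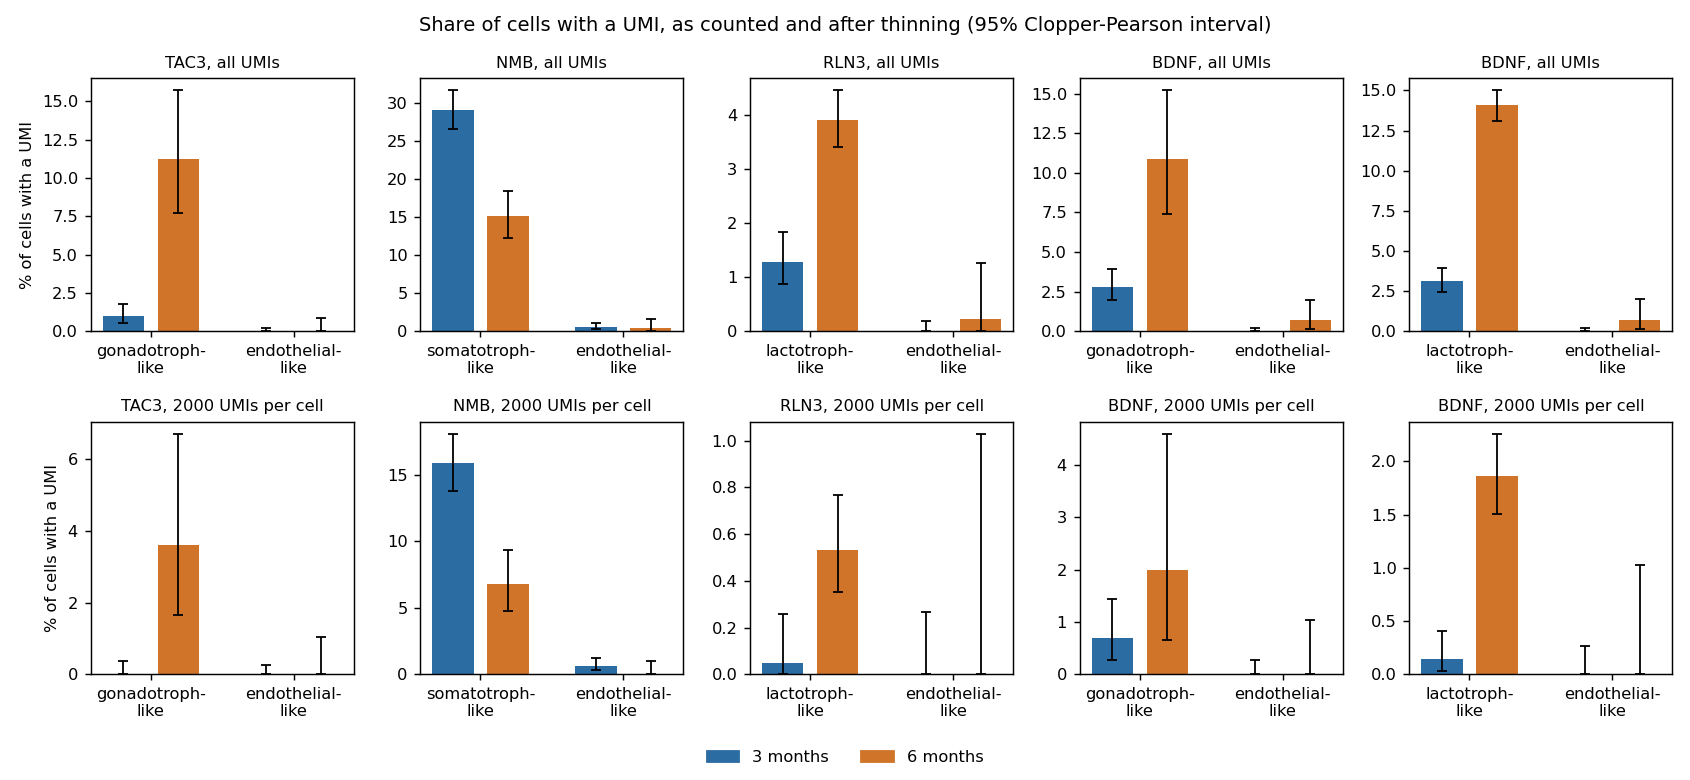
Share of cells with a UMI of each gene in its leading classes and in endothelial-like cells, as counted (top) and after thinning each cell to 2000 UMIs (bottom), at 3 months (blue) and 6 months (orange). Error bars are 95% Clopper-Pearson intervals and the y axes differ between panels. NMB is the gene whose share is lower at 6 months (29.0% against 15.1%), and the endothelial-like shares stay below 0.7% for every gene.

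BDNF was higher at 6 months within single lactotroph-like clusters as well as over the class. In cluster 9 its levels were 2.24 and 21.1 CPM, with a log2 ratio of 3.23 (2.54 to 3.88). In cluster 1 it had 1.24 and 9.02 CPM, with a log2 ratio of 2.86 (1.68 to 4.34). Clusters 18 and 26, which were large at 6 months, had 10.9 and 11.2 CPM. Among gonadotroph-like cells cluster 14 had 2.69 and 6.04 CPM, a log2 ratio of 1.17 whose interval from −0.01 to 2.22 includes 0. Cluster 30 had 14.4 CPM (10.6 to 19.1) at 6 months. Without cluster 30 the gonadotroph-like ratio was 1.37, and without cluster 14 it was 3.74. The lactotroph-like ratio was 3.29 without cluster 9.

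BDNF-positive gonadotroph-like cells at 6 months held more PRL than the others, at 14.4% against 6.52% of UMIs, and the medians were 25197 and 18142 UMIs. In cluster 30 the PRL shares were 4.33% and 4.85%, so the difference was not seen in that cluster. The part of PRL-bearing RNA in the gonadotroph-like BDNF level was not tested.

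Stem or folliculostellate-like cells formed the next level of BDNF. Their levels were 3.16 CPM (1.87 to 4.99) and 5.75 CPM (4.83 to 6.80), with a log2 ratio of 0.87 (0.15 to 1.66). In cluster 5, which was 89.0% of the class at 3 months and 30.1% at 6 months, the log2 ratio was 1.09 (0.11 to 2.12), from 14 and 28 UMIs. In cluster 22, which was 11.0% and 69.9%, it was 1.10 from 4 and 109 UMIs. The interval there, from −0.30 to 3.00, includes 0. Unnamed clusters nearest to that class had 2.36 CPM (1.84 to 2.99) and 5.61 CPM (3.47 to 8.58). At 3 months the stem or folliculostellate-like level overlapped with the endocrine levels, and at 6 months it lay below both. Unnamed clusters nearest to lactotrophs had 1.35 and 10.8 CPM, from 2 and 29 UMIs. Macrophage-like cells had 0.492 CPM (0.102 to 1.44) and 3.41 CPM (2.45 to 4.63), from 3 and 41 UMIs, in a class where PRL made up 3.58% and 11.9% of UMIs. Somatotroph-like cells held almost none, with 2 UMIs in 1316 cells and 3 UMIs in 548 cells.

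**Figure D3:**
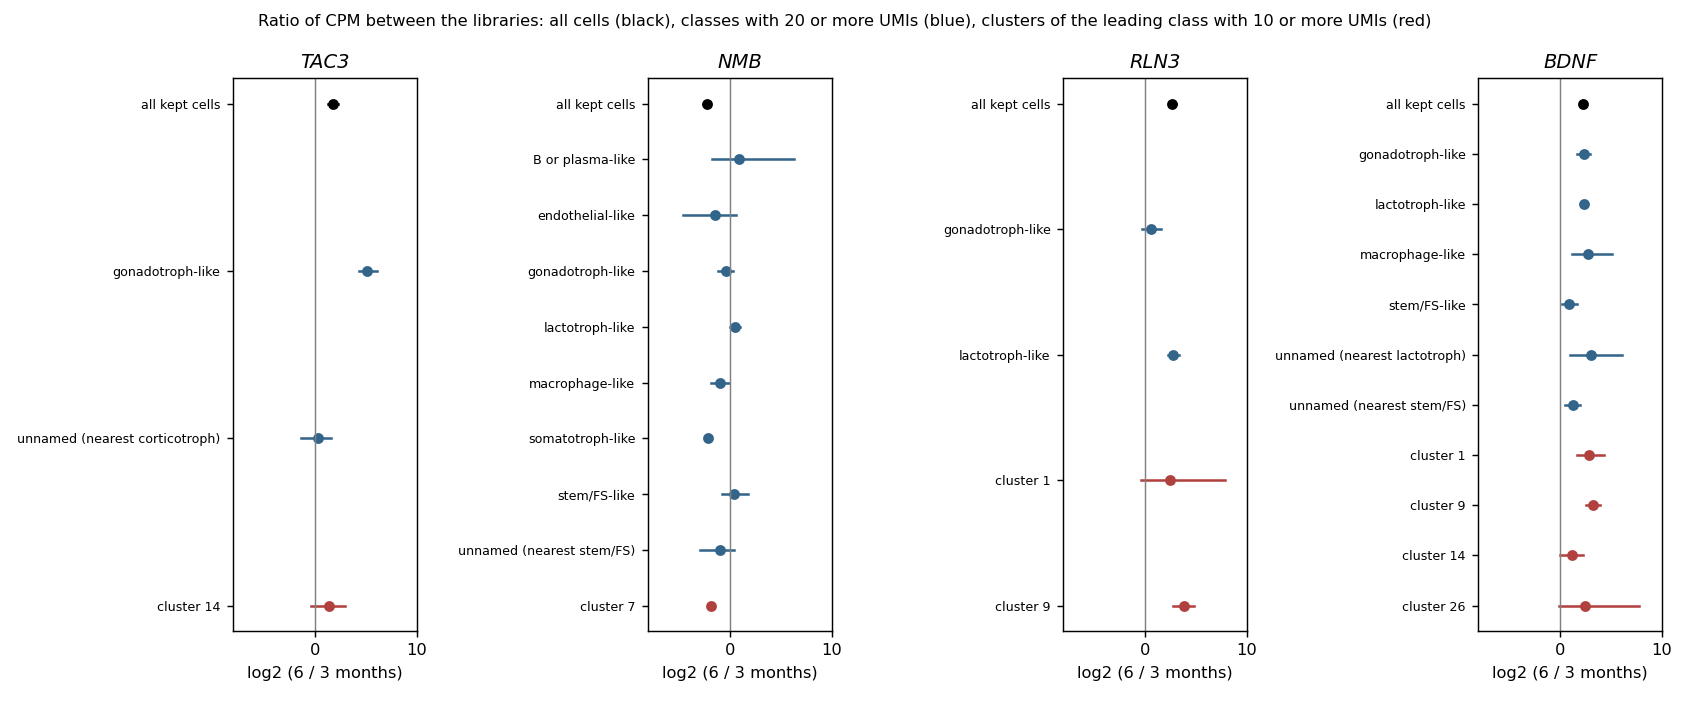
Log2 ratio of CPM, 6 over 3 months, with 95% counting intervals, for all kept cells (black), classes with at least 20 UMIs of the gene (blue) and single clusters of the leading classes with at least 10 UMIs (red). Values above 0 are higher in the 6-month library. The TAC3 ratio is 5.18 in gonadotroph-like cells but 1.45 in cluster 14, whereas the RLN3 and BDNF ratios of cluster 9 are 3.81 and 3.23, above those of the lactotroph-like class.

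**Figure D4:**
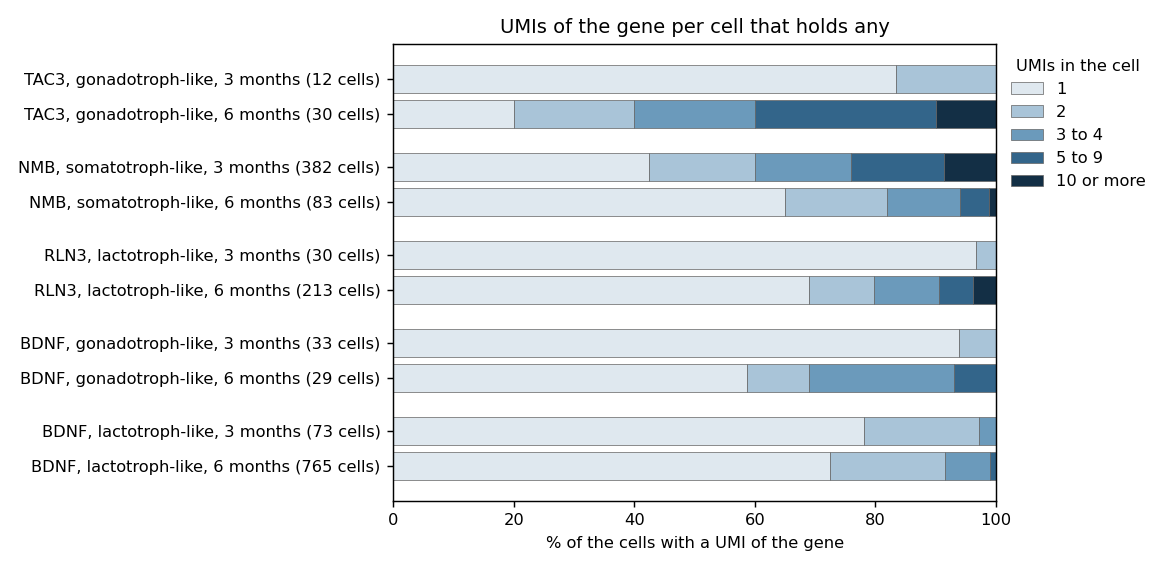
Cells with a UMI of the gene, divided by how many UMIs of it they held, as a percentage of the positive cells of the class in each library. At 6 months TAC3 has 3 of 30 positive cells with 10 or more UMIs, NMB has 33 of 382 such cells at 3 months and 1 of 83 at 6 months, and BDNF has none in either class.

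RLN3 and BDNF were found together in 9 cells at 3 months and 74 cells at 6 months. In lactotroph-like cells of the 6-month library 63 of 213 cells with RLN3 also had BDNF, or 29.6% (23.5 to 36.2), against 702 of 5231 cells without RLN3, or 13.4% (12.5 to 14.4). The RLN3-positive cells were deeper, and as a level, which takes depth into account, BDNF was 17.1 CPM (14.0 to 20.6) in them and 10.5 CPM (9.82 to 11.2) in the others. In cluster 18 these levels were 18.4 CPM (14.3 to 23.3) and 10.5 CPM (9.73 to 11.3), and in cluster 26 they were 17.8 CPM (12.7 to 24.3) and 10.3 CPM, again with intervals that did not overlap. In cluster 9 at 6 months 24 of the 26 BDNF UMIs lay in the 32 of 41 cells without RLN3, at 26.4 CPM (16.9 to 39.2). Its cells with RLN3 and their BDNF UMIs were too few to read a direction there. At 3 months 7 of 30 cells with RLN3 had BDNF, at 10.4 CPM (5.00 to 19.2) against 1.85 CPM (1.47 to 2.30). The cells of a library share their source, and the intervals cover counting error only. NMB and BDNF shared 35 cells at 6 months, and no other pair shared more than 9 in either library.

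Of the tachykinin and kisspeptin genes, the sister peptide TAC1, the precursor of substance P, was higher at 6 months in gonadotroph-like cells, as TAC3 was. It had 8.33 CPM (6.90 to 9.97) and 40.4 CPM (35.0 to 46.5) there, a log2 ratio of 2.28 (1.94 to 2.62). Few cells held these UMIs, 119 in 1.79% and 197 in 3.37% of cells, and whether they were the cells with TAC3 was not tested. In lactotroph-like cells TAC1 was 14.3 and 14.5 CPM, with a ratio of 0.02. In cluster 3 it was 146 CPM at 3 months and 37.5 CPM at 6 months. Of 12 listed genes 3 had at least 100 counts in gonadotroph-like cells, and 2 of these, TAC1 and TAC3, were at least 2-fold higher, in a class where 3.60% of all genes were. TAC3 had been chosen on this contrast. The other, GNRHR, the receptor for gonadotropin-releasing hormone, was 347 and 351 CPM (log2 ratio 0.01). TACR3, the receptor of neurokinin B, had 116 and 33 UMIs over all cells and none in gonadotroph-like or somatotroph-like cells. At 3 months 90 of its UMIs were in unnamed clusters nearest to stem cells (3.04 CPM), and at 6 months 25 were in stem or folliculostellate-like cells, which had 2.63 and 1.05 CPM. Its highest level at 3 months was in corticotroph-like cells, at 8.04 CPM (3.23 to 16.6) from 7 UMIs. TACR1, the substance P receptor, was likewise found in stem or folliculostellate-like cells, at 5.96 and 5.33 CPM. KISS1 and PDYN, which encode kisspeptin and dynorphin, had 22 and 43 UMIs at 3 months and 34 and 42 UMIs at 6 months.

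Of the bombesin-like system, NMBR, the receptor of neuromedin B, had no UMI in either library. GRPR had 37 and 16 UMIs, of which 34 and 14 lay in somatotroph-like cells, the class with the highest NMB. Its level there was 3.40 CPM (2.36 to 4.76) at 3 months and 2.84 CPM (1.55 to 4.77) at 6 months, with a log2 ratio of −0.26 (−1.27 to 0.68). GRPR was 0 in 1171 and 267 gonadotroph-like cells. GRP, which encodes gastrin-releasing peptide, had 150 and 107 UMIs and was not a somatotroph-like gene. Proliferating-like cells had 9.68 and 6.48 CPM of it, and cluster 3 had 9.80 and 2.59 CPM.

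Of the relaxin family, RXFP3, the receptor of relaxin 3, had 2 and 3 UMIs, RXFP1 none and RXFP2 1. RXFP4, the receptor of the related peptide INSL5, had 108 and 75 UMIs. In lactotroph-like cells RXFP4 was 1.08 CPM (0.795 to 1.44) and 0.354 CPM (0.248 to 0.490), a log2 ratio of −1.61 (−2.28 to −0.96), while RLN3 had the opposite sign. RLN1, INSL3, INSL5 and INSL6 had at most 10 UMIs in a library. RLN2 is not used here, since the feature table gave no row under that symbol.

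Of the neurotrophin system, NTRK2, the main receptor of BDNF, was abundant outside the lactotroph-like cells that held most BDNF. It was 143 CPM (133 to 153) and 225 CPM (219 to 232) in stem or folliculostellate-like cells, 69.9 and 90.0 CPM in gonadotroph-like cells, and 364 and 193 CPM in cluster 3. Fibroblast-like cells had 152 and 249 CPM from 144 and 29 cells. In lactotroph-like cells NTRK2 was 1.13 CPM and 0.443 CPM. NGFR, the low-affinity receptor, was 7.01 and 9.36 CPM in stem or folliculostellate-like cells and below 0.1 CPM in lactotroph-like cells. SORT1 was 48.0 and 43.2 CPM in stem or folliculostellate-like cells and 14.7 and 12.2 CPM in lactotroph-like cells.

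Among the relatives of sortilin, SORCS3 was a lactotroph-like gene and was lower in the later library, with 305 UMIs and 7.03 CPM (6.26 to 7.86) at 3 months and 23 UMIs and 0.226 CPM (0.143 to 0.339), a log2 ratio of −4.96 (−5.64 to −4.34). It was thus lower in the class in which BDNF was higher. SORCS1 was 6.21 and 4.67 CPM in somatotroph-like cells, and SORCS2 had 115 and 65 UMIs in all. NTF4, a further ligand of NTRK2, was mainly gonadotroph-like, with 42 of 70 and 14 of 28 UMIs in that class and a log2 ratio there of −0.03 (−1.02 to 0.87). NTRK3 had 29 and 47 UMIs over all cells.

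**Figure D5:**
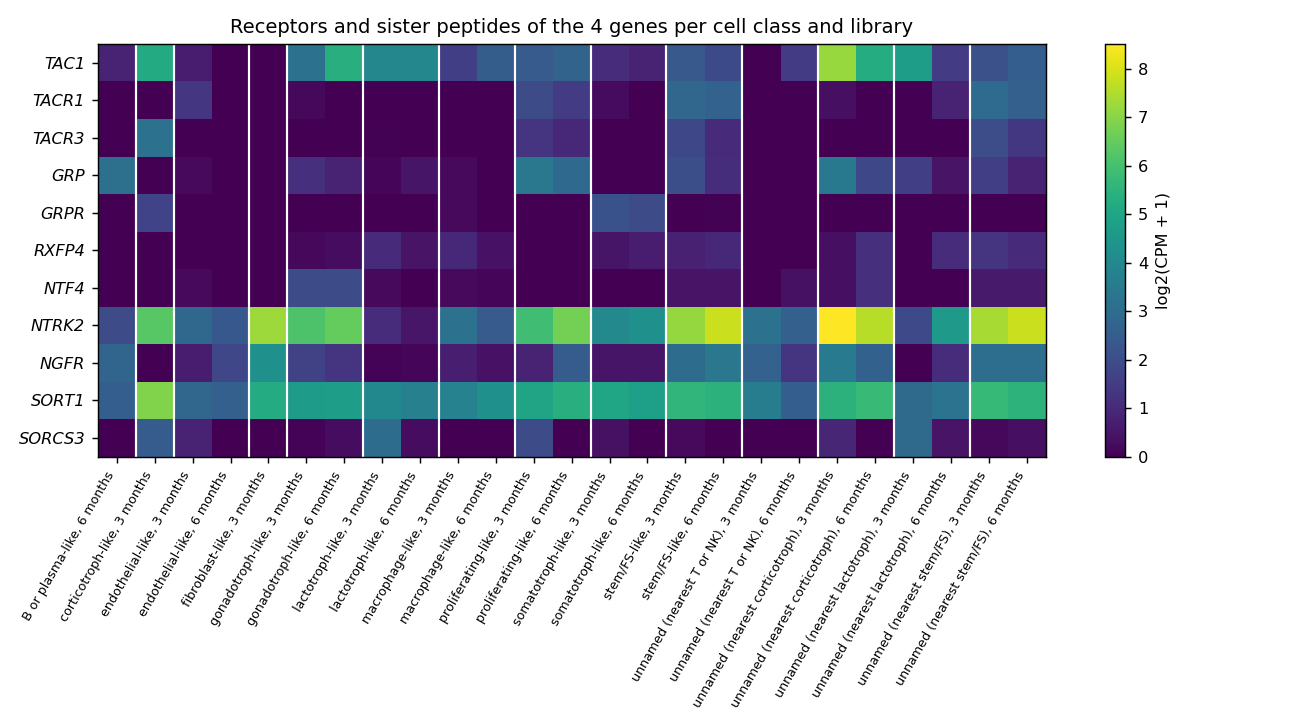
Level of receptors and sister peptides of the 4 genes per cell class and library, as log2(CPM + 1), for classes with at least 50 cells in that library. Brighter is higher. NTRK2 is bright in stem or folliculostellate-like (143 and 225 CPM) and gonadotroph-like cells and dark in lactotroph-like cells, and GRPR appears in somatotroph-like cells (3.40 and 2.84 CPM).

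In gonadotroph-like cells 5 of 17 measured genes of prohormone processing and the secretory granule, from 20 listed, were at least 2-fold higher at 6 months and none was 2-fold lower. Over all genes of the class 3.60% were higher and 5.43% lower. The list had a median log2 ratio of 0.25 against −0.01 for all genes. The 5 were PCSK1, which encodes a prohormone convertase (36.7 and 339 CPM, log2 ratio 3.21), RESP18 (2.24), VGF, a granule protein and peptide precursor (2.13), PAM, which amidates peptides such as neurokinin B (1.28), and SCG3 (1.17). Of other minor pituitary peptides, 6 of 26 were measured in gonadotroph-like cells, 5 higher and 1 lower, with a median of 3.39, beside the same 3.60% and 5.43% over all genes. NPPC, from which C-type natriuretic peptide is made, was 97.2 and 2212 CPM (4.51). PCSK1 and NPPC were among the leading genes of cluster 30, which was 0.171% of the class at 3 months and 53.9% at 6 months. The part of this changed makeup in the gonadotroph-like ratios of processing and peptide genes was not tested. CALCA, which encodes calcitonin and its gene-related peptide, had 2 and 150 UMIs (7.78, interval 5.90 to 10.84), and its paralog CALCB had 0 and 291 UMIs, a log2 ratio of at least 8.15 when the empty 3-month class is set to a floor of 3 counts. The 150 UMIs of CALCA lay in 6.74% and the 291 UMIs of CALCB in 1.87% of the 6-month cells. Reads of these paralogs may have been split between them by the counting. ADM (1.19) and TAC1 were also higher, and GAL, the galanin gene, had 162 and 3 UMIs (−4.20). Its gonadotroph-like level of 11.3 CPM at 3 months was not above the 13.2 CPM of endothelial-like cells, which had 0 UMIs at 6 months, so it is not read as a gonadotroph-like difference.

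In lactotroph-like cells, where 2.22% of all genes were higher and 4.30% lower, 17 genes of the same processing list were measured. Of these 1 was at least 2-fold higher, the synaptotagmin gene SYT1 (2.07), and 4 were lower, the granin genes CHGA (−4.46) and SCG2 (−1.17), VGF (−2.02) and RESP18 (−2.02). Their median of 0.06 was close to the 0.05 of all genes. Of 5 other peptide genes measured there, GAL was lower (376 and 4.31 CPM, −6.45) and none was at least 2-fold higher. GAL and VGF were among the leading genes of cluster 9, which was 65.7% of the class at 3 months and 0.753% at 6 months. The part of this changed makeup in the lactotroph-like ratios was not tested. In somatotroph-like cells SYT1 (1.99) and PCSK1 (1.26) were at least 2-fold higher among 18 measured processing genes and none was lower, beside 0.618% and 1.81% of all genes. CALCA had 1 and 108 UMIs there (7.78, interval 5.27 to 13.09), but the 108 UMIs lay in 0.365% of 548 cells. GAL had 106 and 1 UMIs (−5.71), and its 10.6 CPM at 3 months was not above the endothelial-like level, while the cholecystokinin gene CCK went from 23.3 to 11.8 CPM (−0.99).

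The genes most like each member were ranked by Pearson's r of log2(CPM + 10) over 51 groups, each a cluster within a library with at least 30 cells, among 14996 other genes. For TAC3 they were IGFBP1 (0.94), CHRDL2 (0.87), MPV17L (0.86), MAOB (0.84), ETNPPL (0.81) and KLHL34 (0.80). For NMB they were DOC2A (0.90), RIPPLY1 (0.88), KLHL31, NKX2-2, LOC121820332 and LY6H (each 0.86). The rank correlations of these genes were lower, from 0.32 to 0.56 for TAC3 and from 0.21 to 0.54 for NMB. IGFBP1, the gene of a binding protein for insulin-like growth factors, had a log2 ratio of 13.12 (10.64 to 18.43) in gonadotroph-like cells and MAOB, a monoamine oxidase gene, 4.38. ETNPPL (0.65) and KLHL34 (0.73) were less than 2-fold apart there. The 6 genes most like NMB had log2 ratios from −1.15 (RIPPLY1) to −0.25 (DOC2A) in somatotroph-like cells, all nearer to 0 than that of NMB. For RLN3 the values were weaker, with ESRRB and BDNF at 0.62, RAB42 at 0.59, DISP3 at 0.58, and ENO3 and CLEC2L at 0.57. For BDNF they were CLEC2L (0.69), AGXT2 (0.68), TAFA1 (0.67), and AKAIN1, MFSD2A and ENKUR (each 0.62). The groups share their libraries and differ in depth, and many of them had few or no UMIs of TAC3, RLN3 or BDNF. TAC3 exceeded the 10 CPM added before the logarithm only in clusters 30 and 12 at 6 months (46.0 and 85.5 CPM). Its r values thus rest largely on these groups, and IGFBP1 and CHRDL2 were among the leading genes of cluster 30. All of these correlations are a description only.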

How the data were processed

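Single-cell RNA-seq of 2 libraries, 1 per age, was analysed from the deposited UMI counts. Per the submitters' processing notes Cell Ranger 5.0.0 made them, and per the file headers version 5.0.1 did. For genome build and annotation the sources name nothing. The deposited gene and barcode lists hold symbols, NCBI gene IDs and cell barcodes and no score or other measurement. Of 23141 IDs 22726 matched the RefSeq gene table of assembly ARS-UI_Ramb_v3.0, which was used for names and neighbours only.

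Cells needed at least 500 genes and 1000 UMIs. Scrublet, run per library, marked 922 (5.63%) and 570 (4.30%) cells as doublets, which were removed. Clustering used scanpy 1.11.5 (3000 variable genes without hormone, mitochondrial and ribosomal genes and the 4 members, 30 components, 15 neighbours, Leiden resolution 1.0). A cluster was named "-like" when at least 3 markers of a class were 1.5-fold up and in 10% of its cells, with a mean log2 fold of 0.7. A cluster stayed unnamed where another class had as many such markers, or had more markers among the cluster's leading genes. So did a cluster of low depth without a marker of its class among its leading genes. Of 122 listed markers 113 were found.

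Counts were summed per class and library, and CPM used TMM effective library sizes (edgeR 4.0.16), or UMI totals where a class had under 50 cells in a library, for single clusters and for all cells. Intervals are 95% (exact Poisson, Clopper-Pearson, conditional binomial) and cover counting error only. Those of CPM and ratios treat UMIs as independent and are too narrow where few cells hold many copies. The variance of UMIs per cell over their mean was 15.4 for TAC3 (gonadotroph-like, 6 months) and 9.18 for RLN3 (lactotroph-like, 6 months). For NMB it was 7.53 (somatotroph-like, 3 months). With 1 library per age no test was made. Ratios were compared over genes with at least 100 summed counts. TMM moved the median log2 ratio of all genes from −0.17, 0.14 and 0.25 on totals to −0.01, 0.05 and −0.00 in gonadotroph-like, lactotroph-like and somatotroph-like cells.

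Named beside the members were receptors and sister peptides with at least 20 UMIs, up to 6 processing and peptide genes per class that were at least 2-fold apart, and the 6 genes most like each member. NMBR, RLN1, RXFP and INSL genes under that limit, CCK and IL27RA were named after their values were seen. The members and lists were chosen with earlier results of these data known. Alternatives were another resolution, cell filter, doublet treatment, scaling, count minimum and thinning depth. Some listed genes are not reported here.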

Additional observations from a re-analysis of the deposited data

How the results depend on the processing

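The log2 ratios kept their sign under every alternative that was run. They ranged from 3.56 to 6.00 for TAC3 (gonadotroph-like), −2.70 to −1.84 for NMB (somatotroph-like), 2.33 to 5.16 for RLN3 (lactotroph-like), and 1.37 to 3.74 (gonadotroph-like) and 2.23 to 3.29 (lactotroph-like) for BDNF. The values that moved beyond their counting interval were 4.01 for TAC3 at resolution 0.5 and 3.56 without cluster 30. For NMB they were −1.84 on UMI totals, −2.70 without cluster 7 and −2.39 without the 5 cells of each library with the most NMB. The RLN3 ratio was 5.16 without cluster 9. The BDNF ratio was 3.74 without cluster 14 and 1.37 without cluster 30 in gonadotroph-like cells, and 3.09 with the stricter cell filter and 3.29 without cluster 9 in lactotroph-like cells. Leaving out clusters or the highest cells, and all BDNF values in lactotroph-like cells, were chosen after seeing the data. The cause of these shifts was not tested.

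Thinned shares move with the thinning depth by construction. At 1000 UMIs per cell NMB was in 10.2% and 2.37% of somatotroph-like cells at 3 and 6 months, and RLN3 and BDNF were in 0.239% and 0.882% of lactotroph-like cells at 6 months. At 4000 UMIs NMB was in 22.3% and 12.6%, RLN3 in 0.535% and 1.00%, BDNF in 0.584% and 3.38% of lactotroph-like cells at 3 and 6 months. TAC3 was then in 0.462% of gonadotroph-like cells at 3 months and BDNF in 6.14% at 6 months. With a minimum of 20 summed counts, genes at least 2-fold apart numbered 1709, 1539 and 732 in gonadotroph-like, lactotroph-like and somatotroph-like cells, against 870, 780 and 216 at a minimum of 100 counts, and 377 in somatotroph-like cells by the mean of CPM per cell. No paired analysis was possible because each age has 1 library and no test was made. No replicate could be left out for the same reason. Depth limits the 3-month values of TAC3, RLN3 and BDNF, which had 43, 74 and 230 UMIs.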

Other observations

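In the finer division of the cells, the thyrotroph-like class of 102 and 67 cells held RLN3 and BDNF at 6 months, at 7.39 CPM (3.82 to 12.9) and 9.86 CPM (5.63 to 16.0), from 12 and 16 UMIs. The whole somatotroph-like class of the main division held 5 and 3 UMIs of these genes at 6 months. Most of the 12 and 16 UMIs thus came from cells that the main division placed in other classes, and they are not read as thyrotroph values. At 3 months it held 1 UMI of RLN3 and none of BDNF, which allows up to 6.13 CPM of BDNF. TAC3 had no UMI there in either library, with upper limits of 6.13 CPM at 3 months and 2.27 CPM at 6 months. The class thus held more UMIs at 6 months from fewer cells.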
